A study of Mus musculus with 6 samples.

Results

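The 10 genes described here write, maintain, read or remove cytosine methylation in DNA: Dnmt1, Dnmt3a, Dnmt3b, Uhrf1, Tet1, Tet2, Tet3, Mbd1, Mbd2 and Tdg. They were chosen by name, with earlier results of these data known. All 10 were found by symbol among the 57010 Ensembl gene IDs of the deposited TPM table. TPM is a measure of transcript abundance scaled by gene length and by the library's total. The series measured messenger RNA in Ba/F3, a mouse haematopoietic line that normally needs interleukin-3 to grow, in 6 libraries. In 3 of them the cells carried an empty vector and had the genotype label WT. In the other 3 they overexpressed TPR-FGFR1, a fusion of the nuclear pore protein TPR with the kinase FGFR1, after lentiviral infection and selection for 6 days in puromycin at 5 µg/ml. The labels name no promoter for the fusion, no clone, no interleukin-3 condition and no separate cultures, and they do not say whether the empty vector cells were selected likewise. Every p-value here thus rests on the spread among these 6 libraries, and that spread may be technical.

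Methylation of cytosine in CpG dinucleotides is set de novo by DNMT3A and DNMT3B and copied to the new DNA strand at replication by DNMT1, which UHRF1 brings to hemimethylated sites. TET1, TET2 and TET3 oxidize 5-methylcytosine, and the glycosylase TDG excises the more oxidized forms so that base excision repair can restore cytosine. MBD1 and MBD2 bind methylated CpG and recruit repressors, MBD2 as part of the NuRD complex. In blood cells, DNMT3A and TET2 are known for recurrent mutations in clonal haematopoiesis and leukaemia.

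RefSeq promoter windows on the build GRCm38.p6, from 250 bases before to 50 after a gene's start, were held for 8 of the 10 genes. Where several starts were listed, the window with most CpG dinucleotides was taken, and those of Dnmt1 and Uhrf1 are shown because both carry an E2F-type motif and their products act in the same maintenance step. The 4 octamers TTTCCCGC, TTTGGCGC, TTTCGCGC and TTTGCCGC were searched on both strands. At least 1 of them lay in 2.27% of the 32851 windows and in the most CpG-rich window of 2.40% of genes. Among the 8, Dnmt1 and Uhrf1 alone held one. All 4 octamers contain a CpG, and their rate in windows equally rich in CpG was not counted. Dnmt1 held TTTCGCGC on the reverse strand from base −219 and TTTGGCGC from base 34, and Uhrf1 held TTTCGCGC from base −185. These positions count from the listed start whose window was taken. Dnmt1 and Dnmt3a each have 3 listed starts and Uhrf1 has 2. Which start these cells used was not tested, so the window taken may lie outside the promoter in use. The Dnmt1 motifs may then lie within the transcribed gene rather than in its promoter. The Dnmt1 window is chr9:20952574-20952873 on the minus strand and the Uhrf1 window chr17:56304063-56304362 on the plus strand. Capitals mark the motifs.
Dnmt1: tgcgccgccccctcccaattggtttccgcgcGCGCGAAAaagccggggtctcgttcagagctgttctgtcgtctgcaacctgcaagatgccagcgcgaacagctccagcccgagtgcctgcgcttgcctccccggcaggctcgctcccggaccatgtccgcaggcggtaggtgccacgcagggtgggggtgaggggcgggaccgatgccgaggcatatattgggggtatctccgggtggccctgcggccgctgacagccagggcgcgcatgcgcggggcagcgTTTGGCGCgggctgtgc
Uhrf1: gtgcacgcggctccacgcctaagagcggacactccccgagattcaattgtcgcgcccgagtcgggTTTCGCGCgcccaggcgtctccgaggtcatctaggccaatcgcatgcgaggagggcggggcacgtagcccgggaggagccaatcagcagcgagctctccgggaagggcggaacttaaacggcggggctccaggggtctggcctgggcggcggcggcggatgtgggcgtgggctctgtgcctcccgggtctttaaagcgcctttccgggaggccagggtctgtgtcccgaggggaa

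The windows of Dnmt3a and Tet3, which like Uhrf1 fell in the fusion cells, are shown with each CpG, the substrate of the enzymes themselves, in capitals. The Dnmt3a window, chr12:3806910-3807209 on the plus strand, held 47 CpG, a number reached in the richest window of 1.66% of the 27025 genes in the table. The Tet3 window, chr6:83441629-83441928 on the minus strand, held 22, reached by 25.2%. The median over genes was 8. Among the members the count ran from 17 for Tet1 to 57 for Tet2, so Tet2 had the most CpG-rich window of the 8. A CRE motif, TGACGTCA, occurred in the window of Tdg and in the richest window of 1.88% of genes. An ETS motif, CCGGAAGT, occurred in none of the 8 and in the richest window of 4.05% of genes. The CRE and ETS matches were also counted on both strands, and no match overlapped another.
Dnmt3a: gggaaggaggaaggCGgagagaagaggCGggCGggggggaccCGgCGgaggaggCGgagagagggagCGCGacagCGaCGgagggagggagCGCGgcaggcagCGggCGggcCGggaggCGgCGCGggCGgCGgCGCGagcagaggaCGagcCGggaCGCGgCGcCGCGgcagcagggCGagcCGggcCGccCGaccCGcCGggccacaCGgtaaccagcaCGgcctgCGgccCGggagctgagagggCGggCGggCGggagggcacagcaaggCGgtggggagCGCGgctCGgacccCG
Tet3: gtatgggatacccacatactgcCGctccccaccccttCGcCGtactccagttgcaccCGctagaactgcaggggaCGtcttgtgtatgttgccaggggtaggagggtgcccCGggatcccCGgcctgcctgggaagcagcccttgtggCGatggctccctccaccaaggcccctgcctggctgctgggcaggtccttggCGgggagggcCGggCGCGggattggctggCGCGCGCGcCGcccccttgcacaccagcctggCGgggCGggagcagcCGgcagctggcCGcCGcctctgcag

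Fgfr1, the kinase partner, was listed at 0.02, 0.04 and 0.05 TPM with the empty vector and at 0.70, 0.58 and 1.26 TPM with the fusion, so the labels and the level of the gene went the same way. Tpr stood at 144, 155 and 144 TPM and at 143, 145 and 125 TPM (limma adjusted p = 0.399). The libraries gave 12679 to 12839 genes at 1 TPM or more, and their sequencing depth is unknown because TPM keeps no read number. The cells are labelled as B lymphocytes, but of 12 B cell markers only Cd79b passed the filter of a mean of 1 TPM, and 9 averaged under 0.1 TPM. The summed B cell markers were at 6.54 to 7.35 TPM with the empty vector and 5.11 to 7.88 TPM with the fusion. Of 6 Ba/F3 and progenitor markers, 4 were tested and 2 fell, the receptor genes Il3ra and Csf2rb2 (limma adjusted p = 0.0259 and 0.0295), with sums of 546 to 589 TPM with the empty vector and 466 to 518 TPM with the fusion. Csf2rb2 and Csf2rb are near-identical copies, so reads may have been split between them. Of 8 myeloid markers 2 fell, with sums of 43.6 to 54.4 and 34.1 to 43.2 TPM, and the erythroid markers summed to 240 to 321 and 191 to 400 TPM with 1 fall. T cell and stromal markers summed to at most 1.33 TPM in any library, and the 6 mast cell and basophil markers, nearly all of it Gata2, to 233 to 241 and 135 to 215 TPM. The part of other cell states in the results was not tested. In such bulk samples, fewer cells of a type and less RNA per cell cannot be told apart. The TPR-FGFR1 libraries stood apart from each other in a way that followed GC content. With the tested genes in 5 equal bins by GC content, the median difference from the empty vector mean was lower in the highest bin than in the lowest by 0.69, 0.86 and 0.07 on the log2 scale in replicates 1, 2 and 3.

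In the fusion cells 3 of the 10 genes fell, namely Dnmt3a, Uhrf1 and Tet3, and none passed the test as higher. A gene was called at a Benjamini-Hochberg adjusted p under 0.05 from limma on log2(TPM + 1), over the 12862 genes whose mean reached 1 TPM. Of the 10 genes, 9 passed that filter and Tet1 did not. Among these 9, limma called 3, against 20.2% of all tested genes. All 3 were lower, against 10.04%, and 0 were higher, against 10.2%. At an unadjusted p under 0.05 the counts were 5 lower and 1 higher. Of all 12862 tested genes, 2477 were lower and 2558 higher at that threshold. The median log2 fold change of the 9 was −0.29, against 0.02 for all tested genes. The groups did not overlap for 6 genes that were lower in the fusion cells, against 20.8% of tested genes, and for 1 that was higher, against 22.6% (7 in all, against 43.4%).

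**Figure D1:**
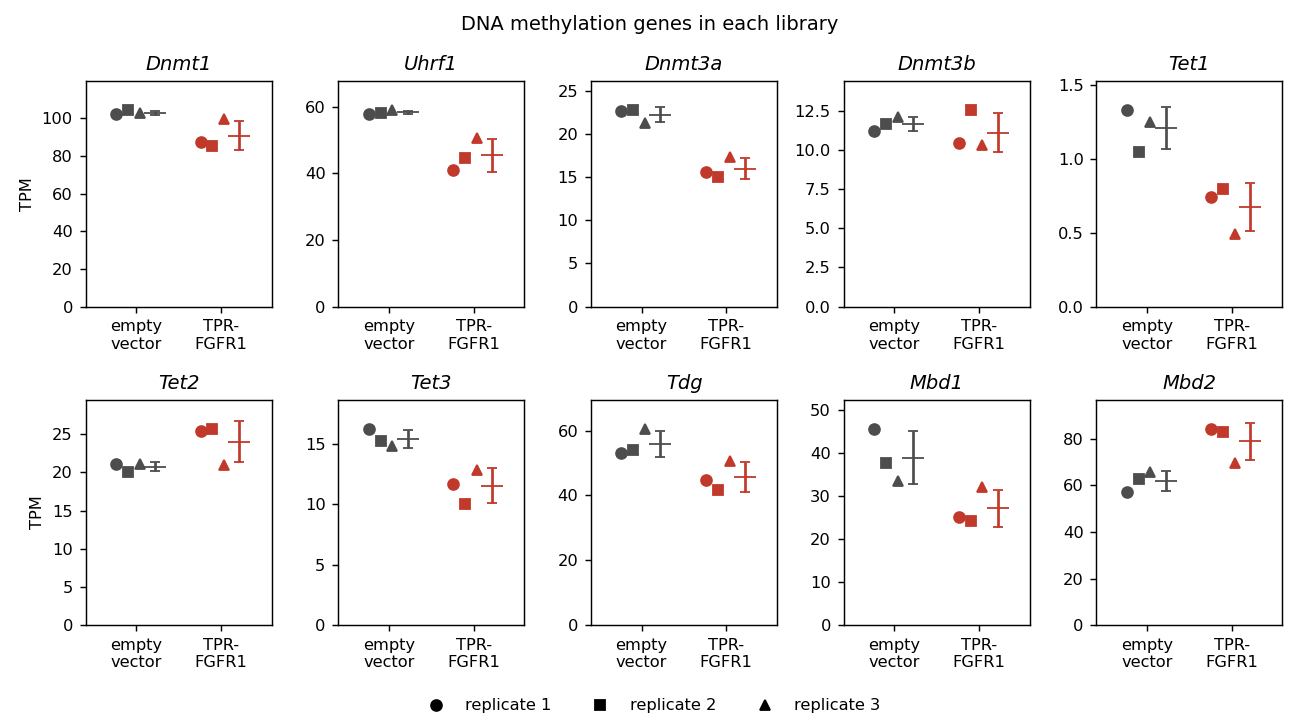
TPM of each of the 10 genes in each library, with the empty vector in grey and TPR-FGFR1 in red; marker shapes give the replicate number, and the bars give the mean and SD of 3 libraries. Dnmt3a lies between 21.3 and 22.8 TPM with the empty vector and between 15.0 and 17.4 TPM with the fusion, while Mbd2 lies higher with the fusion and Dnmt3b overlaps.

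The de novo methyltransferase gene Dnmt3a (ENSMUSG00000020661) stood at 22.8, 22.8 and 21.3 TPM with the empty vector and at 15.7, 15.0 and 17.4 TPM with the fusion, replicates 1 to 3 in each case. All 3 fusion libraries were below all 3 empty vector libraries. The mean fell by 28.1%, from 22.3 ± 0.863 to 16.0 ± 1.21 TPM (SD over 3 libraries each), with a log2 fold change of −0.45 (SE 0.0855, 95% interval −0.66 to −0.25, limma adjusted p = 0.0175). The call held in 14 of 20 other settings, and its adjusted p was 0.00525 after removal of the GC content and length trend (log2 fold change −0.41). Leaving out 1 library kept the call only without TPR-FGFR1 replicate 3 (0.00208), and the adjusted p was 0.0586 to 0.0851 without any 1 of the other 5 libraries.

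Dnmt3b (ENSMUSG00000027478), which encodes the second de novo enzyme, stood at 11.2, 11.7 and 12.1 TPM with the empty vector and at 10.5, 12.5 and 10.3 TPM with the fusion. The groups overlapped, and fusion replicate 2 was the highest of the 6. The Dnmt3b log2 fold change was −0.07 (95% interval −0.31 to 0.17, limma adjusted p = 0.625), so a change of the size seen in Dnmt3a lay outside the interval. After removal of the GC and length trend it was 0.07. Within each library the ratio of Dnmt3a to Dnmt3b TPM was 2.03, 1.95 and 1.75 with the empty vector and 1.498, 1.20 and 1.68 with the fusion.

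Dnmt1 (ENSMUSG00000004099), the maintenance methyltransferase gene, was the most abundant of the 10 in both groups. It stood at 102, 104 and 103 TPM with the empty vector and at 87.7, 85.1 and 99.8 TPM with the fusion. The groups did not overlap, but fusion replicate 3 lay close to the empty vector libraries. The means were 103 ± 1.05 and 90.8 ± 7.85 TPM (SD over 3 libraries each), and the log2 fold change of −0.18 did not pass the test (SE 0.0822, 95% interval −0.38 to 0.01, limma adjusted p = 0.146). It was −0.25 without TPR-FGFR1 replicate 3 (adjusted p = 0.00545), and −0.02 after removal of the GC and length trend (0.689).

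Uhrf1 (ENSMUSG00000001228), whose product recruits DNMT1, stood at 57.9, 58.3 and 58.9 TPM with the empty vector and at 40.9, 44.7 and 50.6 TPM with the fusion. The empty vector libraries were within about 1 TPM of each other and all above the fusion libraries. The mean fell by 22.2%, from 58.4 ± 0.538 to 45.4 ± 4.88 TPM (SD over 3 libraries each), with a log2 fold change of −0.36 (SE 0.0920, 95% interval −0.58 to −0.14, limma adjusted p = 0.0375). The call held in 9 of 20 other settings. It was lost after removal of the GC and length trend, where the change was −0.19 (0.0646), and without any 1 library other than TPR-FGFR1 replicate 3 (0.105 to 0.127). The ratio of Uhrf1 to Dnmt1 TPM was 0.566, 0.559 and 0.574 with the empty vector and 0.467, 0.526 and 0.507 with the fusion.

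Of the 3 TET dioxygenase genes, Tet2 and Tet3 were the abundant ones and Tet1 was near the filter of 1 TPM. Tet3 (ENSMUSG00000034832) stood at 16.2, 15.2 and 14.8 TPM with the empty vector and at 11.7, 10.04 and 12.9 TPM with the fusion, with no overlap. Its mean fell by 25.1%, from 15.4 ± 0.734 to 11.5 ± 1.42 TPM (SD over 3 libraries each), with a log2 fold change of −0.39 (SE 0.107, 95% interval −0.65 to −0.14, limma adjusted p = 0.0435). The Tet3 call held in 11 of 20 other settings. The change was −0.28 after removal of the GC and length trend (0.0268), and the adjusted p was 0.109 to 0.141 without any 1 library other than TPR-FGFR1 replicate 3.

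Tet2 (ENSMUSG00000040943) stood at 21.0, 20.1 and 21.1 TPM with the empty vector and at 25.5, 25.7 and 21.0 TPM with the fusion. Fusion replicates 1 and 2 were above every empty vector library and replicate 3 was among them. The Tet2 log2 fold change of 0.20 did not pass the test (95% interval −0.03 to 0.43, limma adjusted p = 0.177). It was 0.29 without TPR-FGFR1 replicate 3 (adjusted p = 0.00755) and 0.04 after removal of the GC and length trend (0.568). The ratio of Tet2 to Tet3 TPM was 1.30, 1.32 and 1.43 with the empty vector and 2.18, 2.56 and 1.63 with the fusion. The 3 TET genes summed to 36.3 to 38.6 TPM with the empty vector and 34.3 to 37.9 TPM with the fusion.

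Tet1 (ENSMUSG00000047146) stood at 1.33, 1.05 and 1.25 TPM with the empty vector and at 0.74, 0.80 and 0.49 TPM with the fusion. All 3 fusion libraries were lower. Added to the tested genes, Tet1 had a log2 fold change of −0.40 (95% interval −0.80 to −0.00329) and a limma adjusted p of 0.126, on a scale that understates the change at so low a level. With the GC and length trend also removed it was −0.59 (0.0217).

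Tdg (ENSMUSG00000034674), the gene of the thymine DNA glycosylase, stood at 53.2, 53.9 and 60.5 TPM with the empty vector and at 44.7, 41.7 and 50.5 TPM with the fusion. The groups did not overlap, but the log2 fold change of −0.29 did not pass the test (95% interval −0.52 to −0.05, limma adjusted p = 0.0791). The adjusted p was 0.0111 without TPR-FGFR1 replicate 3 and 0.145 to 0.228 without any 1 other library. After removal of the GC and length trend the change was −0.35 (0.051). Tdg has a processed pseudogene, Tdg-ps, at 6.00 to 8.60 TPM among which reads may have been split. GENCODE M21 also places exons of Glt8d2 on the opposite strand over 6.83% of its exonic bases, at 1.13 to 2.71 TPM, and the strand setting of the counting is not given in the sources used here. The antisense genes over Dnmt3a and Tet2 exons were at 0.81 TPM or less in every library.

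The methyl-CpG readers Mbd1 and Mbd2 lay on opposite sides. Mbd1 (ENSMUSG00000024561) stood at 45.7, 37.6 and 33.5 TPM with the empty vector and at 25.1, 24.3 and 32.1 TPM with the fusion, and Mbd2 (ENSMUSG00000024513) at 57.4, 63.0 and 65.7 TPM against 84.3, 82.8 and 69.9 TPM. Neither gene's groups overlapped, although fusion replicate 3 of each lay beside the nearest empty vector library. Both missed the threshold narrowly. Mbd1 had a log2 fold change of −0.50 (SE 0.148, 95% interval −0.85 to −0.15, limma adjusted p = 0.0544), and Mbd2 had 0.34 (SE 0.0999, 95% interval 0.11 to 0.58, adjusted p = 0.0528).

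Whether Mbd2 was called depended on the setting, as it did for Dnmt3a, Uhrf1 and Tet3. It was called higher in 8 of 20 other settings, with adjusted p-values of 0.0451, 0.0325 and 0.0224 under the 3 other scalings, and the change was 0.65 after removal of the GC and length trend (0.0414). Mbd1 was called lower in 5 of the 20, with 0.0111 without TPR-FGFR1 replicate 3. After removal of the GC and length trend the Mbd1 change was −0.50 and not called (0.0654). The ratio of Mbd1 to Mbd2 TPM was 0.795, 0.598 and 0.510 with the empty vector and 0.298, 0.294 and 0.459 with the fusion.

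**Figure D2:**
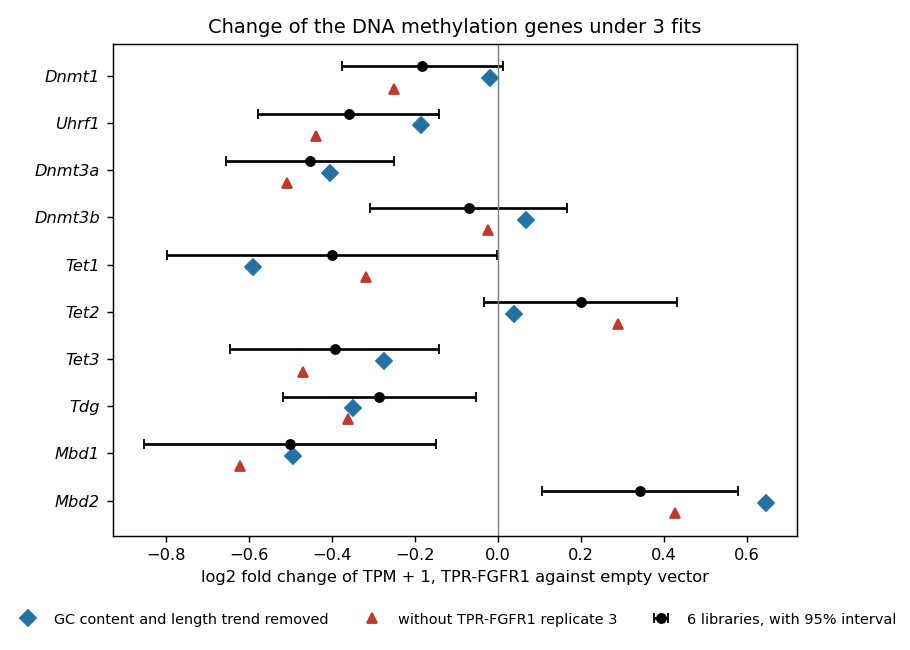
Log2 fold change of TPM + 1 between TPR-FGFR1 and empty vector for each of the 10 genes: the fit of 6 libraries with its 95% interval (black), the fit after removal of the GC content and length trend (blue) and the fit without TPR-FGFR1 replicate 3 (red). Dnmt3a lies between −0.51 and −0.41 in all 3, while Dnmt1 moves from −0.18 to −0.02 and Mbd2 from 0.34 to 0.65 once the trend is removed.

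The order of the levels changed at 2 places between the groups. With the empty vector it ran Dnmt1, Mbd2, Uhrf1, Tdg, Mbd1, Dnmt3a, Tet2, Tet3, Dnmt3b and Tet1, from 103 to 1.21 TPM. The library ranges of neighbours overlapped for Mbd2 with Uhrf1 and for Uhrf1 with Tdg, and for no other neighbours. With the fusion, Tdg (45.7 ± 4.49 TPM) and Uhrf1 (45.4 ± 4.88 TPM) were level. Tet2 (24.0 ± 2.65 TPM) stood above Dnmt3a (16.0 ± 1.21 TPM, SD, n = 3 each), without overlap, whereas with the empty vector Dnmt3a (22.3 ± 0.863 TPM) stood above Tet2 (20.7 ± 0.558 TPM). The summed TPM of the 3 methyltransferase genes was 136, 139 and 136 with the empty vector and 114, 113 and 127 with the fusion. Dnmt1, whose own change did not pass the test, was the largest part of each sum.

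One library set much of the spread. TPR-FGFR1 replicate 3 was the fusion library nearest to the empty vector mean for 8 of the 10 genes, all but Dnmt3b and Tet1, and for 57.6% of all tested genes. Without it 6 members were called lower, against 23.4% of tested genes, and 2 higher, against 26.3%, or 8 in all, against 49.7%. Without any 1 of the other libraries limma called 0 members lower and 0 higher, while 220 to 869 tested genes were called. At an unadjusted p under 0.05 these fits gave 4 or 5 members lower and 1 higher. The share of all tested genes at that threshold was not counted for these fits. The members' transcripts had a GC content from 43.7% for Tet1 to 56.5% for Mbd2, beside medians of 53.7% in genes called lower and 45.4% in genes called higher. With the GC and length trend removed, Dnmt3a and Tet3 were called lower, against 15.4% of tested genes, and Mbd2 higher, against 16.4%, or 3 in all, against 31.8%.

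**Figure D3:**
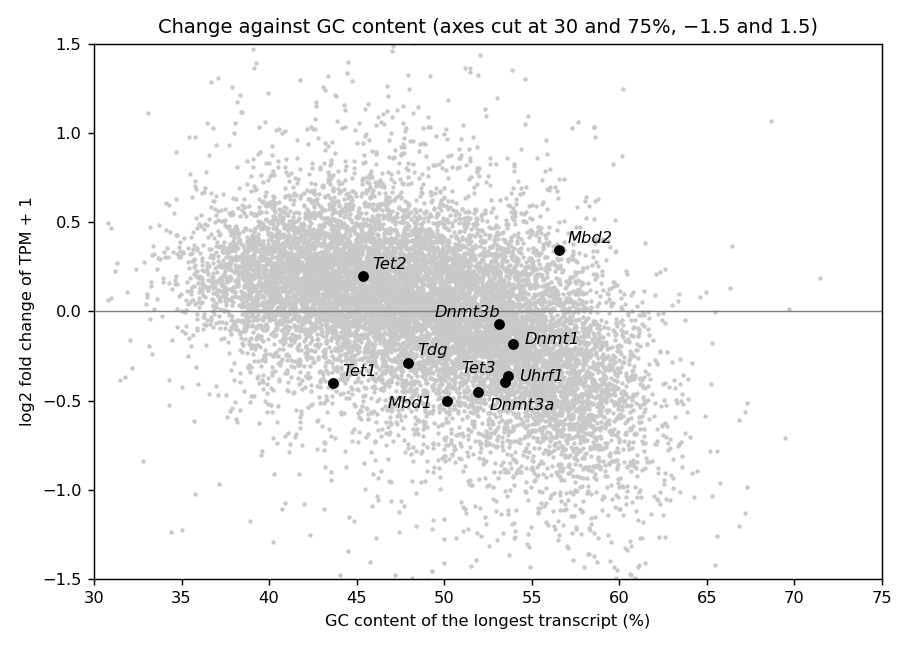
Log2 fold change of TPM + 1 against the GC content of each gene's longest transcript, for all tested genes (grey) and the 10 members (black). Genes richer in GC tend to lie lower, and Mbd2 lies above the axis at a GC content of 56.5% while Tet1 lies below it at 43.7%.

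Genes of related function, known targets of methylation and S phase genes moved in both directions. Of 112 such genes in 10 lists, 82 were tested, with a median log2 fold change of −0.09. Of the 82, 19 fell, against 10.04% of all tested genes, and 10 rose, against 10.2%. The lists were chosen with earlier results of these data known, so such shares are not an independent comparison. Among 8 partners of maintenance methylation 2 fell and 2 rose. Pclaf, which binds the replication clamp, fell from 123 ± 5.16 to 71.4 ± 6.84 TPM, and the clamp gene Pcna from 351 ± 13.3 to 291 ± 15.6 TPM (SD over 3 libraries each, limma adjusted p = 0.00699 and 0.0495). Uhrf2, the paralogue of Uhrf1, rose from 87.5 ± 3.70 to 121 ± 14.1 TPM (0.0261), the opposite direction to Uhrf1, and Cdca7l rose from 35.1 ± 2.64 to 52.2 ± 2.67 TPM (0.0111). Hells, whose remodeller opens chromatin to DNMT1, stood at 86.8 ± 6.28 and 74.1 ± 12.2 TPM (0.226), but passed the test as lower after removal of the GC and length trend (0.00483).

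The S phase and E2F genes, 15 in all, are given beside Dnmt1 and Uhrf1 because both are transcribed with replication genes. Of these, 9 fell, against 10.04% of all tested genes, and 0 rose by limma, with 9 and 0 at an unadjusted p under 0.05. Earlier results of these data were known when this list was chosen, so its share is not an independent excess. The median log2 fold change was −0.45, and −0.23 after removal of the GC and length trend, with 11 then called lower. E2f2 fell from 24.2 ± 1.05 to 13.0 ± 1.60 TPM and Gins1 from 16.9 ± 0.951 to 10.2 ± 0.369 TPM (SD over 3 libraries each, limma adjusted p = 0.00746 for each), and Tyms and Rrm2 fell by 0.75 and 0.45 on the log2 scale (0.0179 and 0.0181). The part of this list's change in the fall of Uhrf1 was not tested. By the summed squared difference of centred log2(TPM + 1) values over the 6 libraries, the genes of all 10 lists most like Dnmt3a were Mcm5 (0.0499), Parp1 (0.0578) and Mcm3 (0.0867). Only tested genes of the lists were compared, and a like fall between the groups is enough to bring a gene close. How many other tested genes lie as close was not counted.

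Among 7 tested genes for de novo partners and histone methylation, Trim28, a corepressor that zinc finger proteins bring to methylated repeats, fell from 160 ± 14.1 to 100.04 ± 6.91 TPM (SD over 3 libraries each, limma adjusted p = 0.0095). After removal of the GC and length trend Trim28 was at −0.21 on the log2 scale (0.244). The H3K9 methyltransferase genes Setdb1 and Ehmt1 rose, from 28.0 ± 1.61 to 35.2 ± 1.98 TPM and from 25.2 ± 1.02 to 31.3 ± 2.11 TPM (0.0394 and 0.0444). Ehmt2, whose enzyme pairs with EHMT1, stood at 46.3, 41.3 and 41.4 TPM and at 28.0, 20.9 and 41.0 TPM, lower without overlap but not called (0.111). After removal of the GC and length trend Ehmt2 was at −0.06 on the log2 scale (0.641). Dnmt3l, the catalytically inactive cofactor of the DNMT3 enzymes, stood at 4.38, 6.05 and 4.64 TPM and at 3.53, 4.46 and 5.82 TPM, with overlapping groups (0.671).

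Around the TET enzymes, 2 of 7 tested genes rose, against 10.2% of all tested genes, and 0 fell by limma, against 10.04%. At an unadjusted p under 0.05, 1 was lower. Idh1, whose enzyme makes the 2-oxoglutarate that TET enzymes use, rose from 7.62 ± 0.649 to 18.99 ± 2.62 TPM (SD over 3 libraries each, log2 fold change 1.21, limma adjusted p = 0.00651). Ogt, a TET partner, stood at 225 ± 8.31 and 207 ± 31.6 TPM (0.46, and 0.00843, as lower, after removal of the GC and length trend). Of 14 tested genes of base excision repair and the Gadd45 family 2 fell and 1 rose, beside the same shares of all tested genes. Apex1, the abasic site endonuclease gene that acts after TDG, fell from 73.5 ± 3.27 to 44.3 ± 2.32 TPM (0.00651), Ung fell by 0.63 on the log2 scale (0.0181), and the ligase gene Lig3 rose from 18.9 ± 1.73 to 25.3 ± 2.16 TPM (0.0356).

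Among the other methyl-CpG readers, 2 of 7 fell, against 10.04% of all tested genes, and 0 rose by limma, against 10.2%. At an unadjusted p under 0.05, 1 was higher. Mbd3, the MBD2 paralogue that takes its place in NuRD, fell from 26.9 ± 3.09 to 12.6 ± 2.96 TPM (SD over 3 libraries each, log2 fold change −1.06, limma adjusted p = 0.0119), while Mbd2 lay the other way. After removal of the GC and length trend the Mbd3 change was −0.48 (0.0527). Mbd6 fell from 16.5 ± 1.58 to 8.44 ± 3.03 TPM, with −0.93 on the log2 scale and −0.34 after that removal. Of 12 NuRD subunit genes 3 fell, against 10.04% of all tested genes, and 0 rose, against 10.2% (1 higher at an unadjusted p under 0.05). Gatad2a fell by 0.83, Chd3 by 0.70 and Mta3 by 0.65 on the log2 scale (adjusted p = 0.0137, 0.0301 and 0.0218). The methionine cycle supplies the methyl donor. Of its 9 tested genes 2 rose, against 10.2% of all tested genes, and 0 fell by limma, against 10.04%. At an unadjusted p under 0.05, 6 were higher and 0 lower, against 2558 and 2477 of the 12862 tested genes. Methionine synthase, Mtr, rose from 17.7 ± 0.740 to 23.8 ± 2.77 TPM (0.0375) and Ahcyl2 from 17.6 ± 1.74 to 24.6 ± 1.701 TPM (0.0247).

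**Figure D4:**
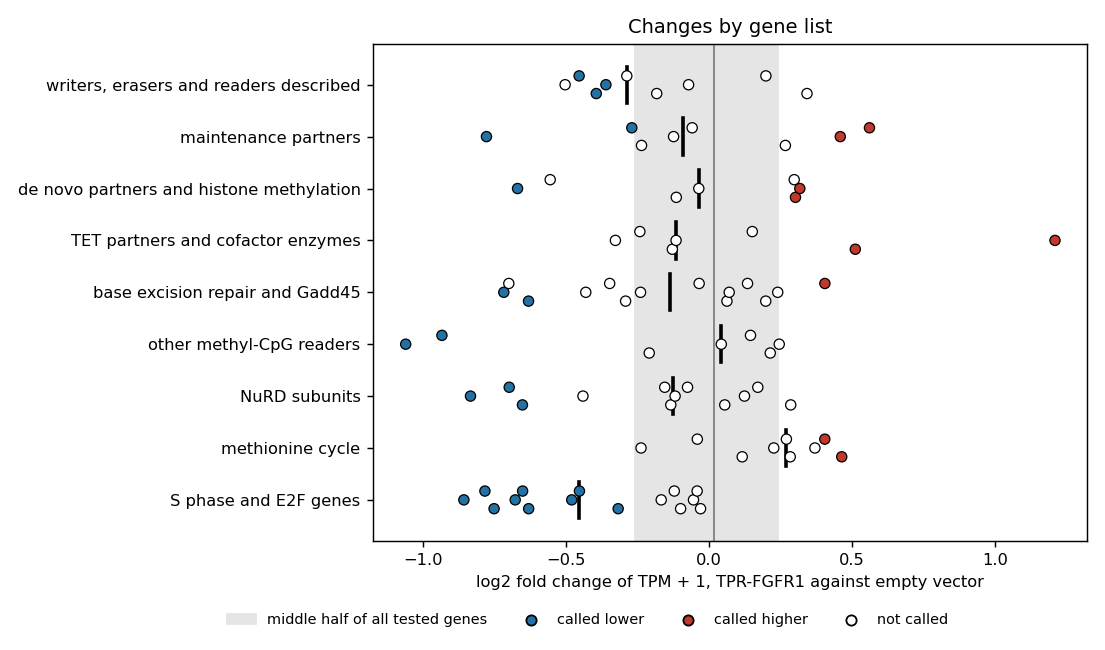
Log2 fold change of TPM + 1 for the tested genes of each list, with filled points for genes called lower (blue) or higher (red), open points for genes not called, a black bar at each list's median, and the interquartile range (grey band) and median (grey line) of all tested genes. The S phase and E2F genes all lie below the grey line, with a median of −0.45, and the methionine cycle has a median of 0.27.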

How the data were processed

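The authors deposited TPM values per Ensembl gene ID, 1 column per library. The submitters' processing notes name StringTie, HISAT2, fastp and the build GRCm39, while versions, annotation release and strand setting were not given in the sources used. Per the labels' protocols, 1 µg of total RNA entered a stranded mRNA kit. Columns were matched to samples by name, with 0 columns of other samples. Symbols, and the GC content and length of the longest transcript, came from GENCODE M21 (GRCm38), matched by ID (52029 IDs, 91.3%), and promoters from RefSeq.

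Values were analysed as log2(TPM + 1) for genes whose mean reached 1 TPM, with limma 3.58.1 in R 4.3.3 (eBayes with trend, group as only term, Benjamini-Hochberg over all 12862 genes), a pipeline tested on simulated data. A pseudocount of 1 understates changes of low genes. Tet1 and Fgfr1 lie under the filter. The trend removal subtracted from each library a spline (4 degrees of freedom) of its deviations over GC content and length, leaving out 321 genes without a value. All 10 members are named, with up to 4 called genes of smallest adjusted p per list; Hells, Ehmt2, Dnmt3l and Ogt were added after their values were seen, and 1 called gene is not reported here. The members and lists were chosen with earlier results of these data known. The alternatives were other pseudocounts, filters, scalings and eBayes settings, library weights, the replicate block, the trend removal and leaving out each library.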

Additional observations from a re-analysis of the deposited data

How the results depend on the processing

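Of 20 alternative settings, the count of members called lower was within 1.5 times of the 3 reported in 9, and that of members called higher equalled the 0 reported in 12. Members called lower numbered 1 without a filter, 1 without the eBayes trend, 7 with arrayWeights, 0 with the replicate block, and 5 with the trend removed and without TPR-FGFR1 replicate 3. Members called higher numbered 1 with a filter at 5 TPM, with each of the 3 scalings (without mitochondrial genes, median-ratio, quantile), and with the GC content and length trend removed, with or without TPR-FGFR1 replicate 3, and 2 with arrayWeights. Leaving out each library gave 0 to 6 lower and 0 to 2 higher. For the related genes, against 10 higher and 19 lower, the counts were 5 and 8 without a filter, 29 and 37 with arrayWeights, 3 and 9 with the replicate block, 16 and 27 with the trend removed, and 1 to 22 and 4 to 30 leaving out each library. The 2600 tested genes called became 1146 without a filter, 9281 with arrayWeights (whose estimation stopped before convergence), 764 with the replicate block, 3986 with the trend removed, 4902 with that and without TPR-FGFR1 replicate 3, and 220 to 6396 leaving out each library. Of the members, Dnmt3b alone changed sign, to 0.0678 with the trend removed, 0.0678 with that and the replicate block, and 0.17 with that and without TPR-FGFR1 replicate 3. The cause of these shifts was not tested. The replicate numbers do not pair the libraries: same-numbered deviations from the group means correlated at −0.193, −0.075 and −0.153, and no library correlated best with its own number. Under the replicate block, limma left 5 members lower and 1 higher at an unadjusted p under 0.05. The share of all tested genes at that threshold was not counted there. Depth is unknown, so no counting error can be given for Tet1 and other genes of low level.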

Other observations

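Germline genes known for silencing by promoter methylation in somatic cells were mostly under the filter of 1 TPM. Of 12 such genes Sycp1 alone passed it, and it rose from 10.9 ± 0.616 to 16.5 ± 1.62 TPM (SD over 3 libraries each, log2 fold change 0.55, limma adjusted p = 0.016). Sycp1 encodes a protein of the synaptonemal complex. Under the filter, Ddx4, a germ cell helicase gene, stood at 0.25, 0.17 and 0.18 TPM with the empty vector and at 0.60, 0.66 and 0.64 TPM with the fusion. Sycp3 was at 0.16, 0.14 and 0 TPM against 0.84, 0.31 and 0.19 TPM, while Taf7l was at 0.98, 0.60 and 0.59 TPM against 0.46, 0.57 and 0.35 TPM. Mael, Stk31, Slc25a31 and Hormad1 were listed at 0 in every library. These genes under the filter were named after their values were seen.

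Of 14 imprinted genes, Impact and Nnat passed the filter, and limma called 0 of them, with 1 higher at an unadjusted p under 0.05. Nnat, expressed from the paternal allele, stood at 4.54, 5.92 and 4.47 TPM with the empty vector and at 7.81, 5.63 and 7.01 TPM with the fusion (adjusted p = 0.109, and 0.0205 with the GC content and length trend removed). Impact stood at 19.8, 20.6 and 23.5 TPM against 24.9, 25.6 and 20.5 TPM (0.377). H19, Igf2, Meg3, Plagl1, Peg10 and Snrpn were listed at 0 in every library.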
